A study of Homo sapiens with 4 samples.

Results

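The nuclear-encoded genes of the mitochondrial respiratory chain were compared between differentiated neuroblastoma cells with an shRNA against LSD1+8a and cells with a control shRNA. A gene was taken when its transcript cluster, the array's unit for 1 gene, carried a single protein-coding symbol that starts with NDUF, SDH (SDHA to SDHD), UQCR, COX4 to COX8 or ATP5. Of 90 symbols that fitted, 7 were pseudogenes, antisense RNAs or names without a protein-coding entry and were left out. The other 83 genes, of 22465 measured, comprise 40 genes of complex I, 3 of complex II, 7 of complex III, 15 of complex IV and 18 of complex V. A further 8 clusters that carry a fitting symbol among several were left out, so NDUFS8, COX7C and UQCRH, for example, were not analysed here.

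The cells were SH-SY5Y, an established human neuroblastoma line that can be differentiated toward neurons, and LSD1+8a is LSD1, a histone demethylase encoded by KDM1A, with the neuronal exon 8a spliced in. There were 2 arrays with control shRNA and 2 with LSD1+8a shRNA, and the study asked which genes LSD1+8a regulates in differentiated cells. Retinoic acid (10 μM, 4 days) was followed in both groups by the neurotrophin BDNF (50 ng/mL, 3 days, no serum), so no undifferentiated cells enter the comparison. The labels give 1 name per shRNA and do not say whether infected cells were pooled or cloned.

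KDM1A had log2 signals of 9.10 and 9.25 in control cells and 8.76 and 8.78 in LSD1+8a shRNA cells, a difference of -0.41 ± 0.09 (SE, n = 2 per group, limma adjusted p = 0.0299, and 0.0573 after cyclic loess between arrays), which describes the whole gene and does not check exon 8a. Of 14 markers of neuroblastoma and sympathetic neurons, 12 were measured, with a median signal of 9.54. The array's background features rise with their GC count, from at most 2.45 with up to 12 GC bases to a median of 7.74 to 7.85 with 19 to 25. The median of those with 13 to 18 GC bases, 4.43 to 4.72 over the arrays, serves here as a floor for dim genes, although the GC content of each gene's probes was not used. Of 6 blood and endothelial markers, HBB, PECAM1 and PTPRC lay below that floor on every array. The others lay above it on every array: CD68 at 6.65 to 7.01, CDH5 at 5.05 to 5.56 and CD3E at 4.87 to 5.17. Over all genes, 2721 were higher with LSD1+8a shRNA (12.1%) and 2524 were lower (11.2%), together 23.3% of the genes tested at an adjusted p of 0.05, and the median log2 difference was 0.08.

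The respiratory chain moves electrons from NADH (complex I) and succinate (complex II) through complex III to oxygen at complex IV, and complexes I, III and IV pump protons across the inner mitochondrial membrane. Complex V, the ATP synthase, uses the return of those protons to make ATP, on which neurons depend for ion pumping and transmission. Most subunits are encoded in the nucleus, and the transcription factors NRF1, GABPA (with its partner GABPB1) and YY1 are known to bind promoters of many of them. The mitochondrially encoded subunits were not analysed here.

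Promoters of 5 members are printed. They were chosen to cover a peripheral stalk subunit and a subunit of the ATP-making F1 part of the ATP synthase, both of which fell. The others are the complex IV subunit with the largest fall and a pair of complex IV isoforms that differ in direction. Each run is the 250 bases before the transcription start from RefSeq's GRCh38.p14 table, written 5′ to 3′ on the gene's strand. Capitals mark matches to CGCATGCG (NRF1 type, the same on both strands), CCGGAAG (ETS type, the family of GABPA) and AAGATGGC (YY1 type), or to their reverse complements.
ATP5PF (chr21:25735055-25735304, minus strand): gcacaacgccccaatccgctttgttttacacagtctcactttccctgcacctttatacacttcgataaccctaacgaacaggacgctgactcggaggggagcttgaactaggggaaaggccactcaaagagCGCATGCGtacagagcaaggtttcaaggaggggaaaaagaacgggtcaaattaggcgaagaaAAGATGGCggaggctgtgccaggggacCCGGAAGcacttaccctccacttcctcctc
ATP5F1C (chr10:7787927-7788176, plus strand): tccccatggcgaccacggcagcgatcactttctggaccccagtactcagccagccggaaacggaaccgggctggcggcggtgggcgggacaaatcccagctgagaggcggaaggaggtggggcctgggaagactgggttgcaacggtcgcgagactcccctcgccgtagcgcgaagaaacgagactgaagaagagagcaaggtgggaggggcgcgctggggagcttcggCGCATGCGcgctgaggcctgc
COX7B (chrX:77899218-77899467, plus strand): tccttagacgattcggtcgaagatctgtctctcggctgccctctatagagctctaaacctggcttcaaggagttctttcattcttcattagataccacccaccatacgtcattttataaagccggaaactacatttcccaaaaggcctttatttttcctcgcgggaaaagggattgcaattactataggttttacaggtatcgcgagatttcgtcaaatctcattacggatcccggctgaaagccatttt
COX6A1 (chr12:120437863-120438112, plus strand): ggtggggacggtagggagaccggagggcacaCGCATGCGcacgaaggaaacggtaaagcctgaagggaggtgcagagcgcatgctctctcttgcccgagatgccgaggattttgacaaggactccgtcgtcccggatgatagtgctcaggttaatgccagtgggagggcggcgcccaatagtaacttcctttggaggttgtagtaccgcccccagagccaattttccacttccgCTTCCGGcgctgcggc
COX6A2 (chr16:31428361-31428610, minus strand): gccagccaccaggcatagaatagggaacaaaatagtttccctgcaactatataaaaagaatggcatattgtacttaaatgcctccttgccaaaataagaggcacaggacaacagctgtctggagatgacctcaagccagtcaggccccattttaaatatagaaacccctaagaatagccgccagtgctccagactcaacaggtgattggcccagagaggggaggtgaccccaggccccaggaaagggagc
The ATP5PF run holds 1 match of each type, of which the ETS type is nearest the start and begins 30 bases before it. ATP5F1C has an NRF1-type match that begins 21 bases before the start. COX6A1, the general isoform, holds an NRF1-type and an ETS-type match, whereas neither COX6A2, the muscle isoform, nor COX7B holds any of these letters in its run.

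Promoters of 300 bases (250 before the start and 50 after it) were found for 68 of the 83 members. Those missing from the table are NDUFB5, NDUFB9, NDUFS5, NDUFAF6, SDHC, UQCRHL, UQCRB, COX6C, COX7A1, COX4I2, ATP5F1B, ATP5MC3, ATP5MF, ATP5MGL and ATP5F1D. Searched on both strands, the NRF1-type letters occurred in 11 of the 68 (16.18%), against 2.19% of the 27305 promoters in the table and 2.95% of the 13885 promoters of measured protein-coding genes. The ETS-type letters occurred in 17 of the 68 (against 10.67% of the table and 14.42% of measured protein-coding genes) and the YY1-type letters in 10 of them (14.71%, against 3.03% and 4.09%). At least 1 of the 3 motifs was present in 9 of the 14 matched members that fell (64.3%) and in 23 of the 54 others (42.6%). The share was 14.7% over the table and 19.62% over measured protein-coding genes. The difference between members that fell and the others was not tested. The matches describe letters in a window and are not shown to be bound in these cells.

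Among the respiratory chain genes, falls outnumbered rises. Of the 83 members, 18 fell, 2 rose and 63 did not pass the test, so 24.1% were called, close to the 23.3% of all genes, while 21.7% were called lower against the background of 11.2% and 2.41% higher against 12.1%. The median signal of the members was 7.29 and 7.34 in control cells and 7.08 and 7.18 in LSD1+8a shRNA cells. Their median difference was -0.18, against 0.08 over all genes, and the difference lay below 0 for 66 members and above 0 for 17. Both LSD1+8a arrays lay below both control arrays for 55 members (66.3%, against a background of 27.7%) and above them for 12 (14.5%, against 46.7%), and the groups overlapped for 16. Of 12 neuroblastoma markers 4 were higher and 1 lower, and of 8 mesenchymal markers 2 were lower and 0 higher. The mesenchymal differences had a median of 0.04, with 4 above 0 and 4 below, and 0 were called after loess. The summed linear signal of the mesenchymal markers was 993 to 1011 in control and 905 to 919 in LSD1+8a shRNA cells. TWIST1, the brightest of them (log2 signals of 8.47 to 8.84) and called lower, weighs most in that sum. The part of either list in the members' differences was not tested. The changes were small: 35 members differed by at least 1.2-fold and 4 by at least 1.5-fold. In RNA from whole cultures, fewer cells of a kind and less RNA per cell cannot be told apart.

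The count of calls depended on the scaling and on single arrays, while 61 to 71 of the 83 differences lay below 0 under the 3 scalings tried and without any 1 array. After cyclic loess between arrays, which removes a level-dependent difference, 4 members were lower and 0 higher by limma. The 4.82% lower was then below the background of 7.85% lower (3.03% higher), while 63 of the 83 differences lay below 0, with a median of -0.19. Those 4 were NDUFS4, NDUFAF5 (near the floor with LSD1+8a shRNA), UQCRHL and ATP5MG. The members' median difference was -0.24 without control array 1 and -0.12 without control array 2. In both of those fits 0 of all 22465 genes were called. In a fit without 1 array the lone array of its group is assumed to vary like the other group's pair. Without LSD1+8a array 1, 3 members were lower and 0 higher, so that the 3.61% lower was no larger than the 3.94% of all genes, and the members' median was -0.12. Without LSD1+8a array 2, 21 were lower (25.3%, against 8.79% of all genes), 13 of them among the 18, and 0 higher. Each of the 18 stayed below 0 in all these fits. Named after their values were seen, 8 members missed the threshold narrowly, with adjusted p from 0.05 to 0.07: NDUFAB1, NDUFS5, SDHD, COX5B, COX4I1, ATP5F1E and ATP5MJ, all below 0, and NDUFS7, above 0.

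**Figure D1:**
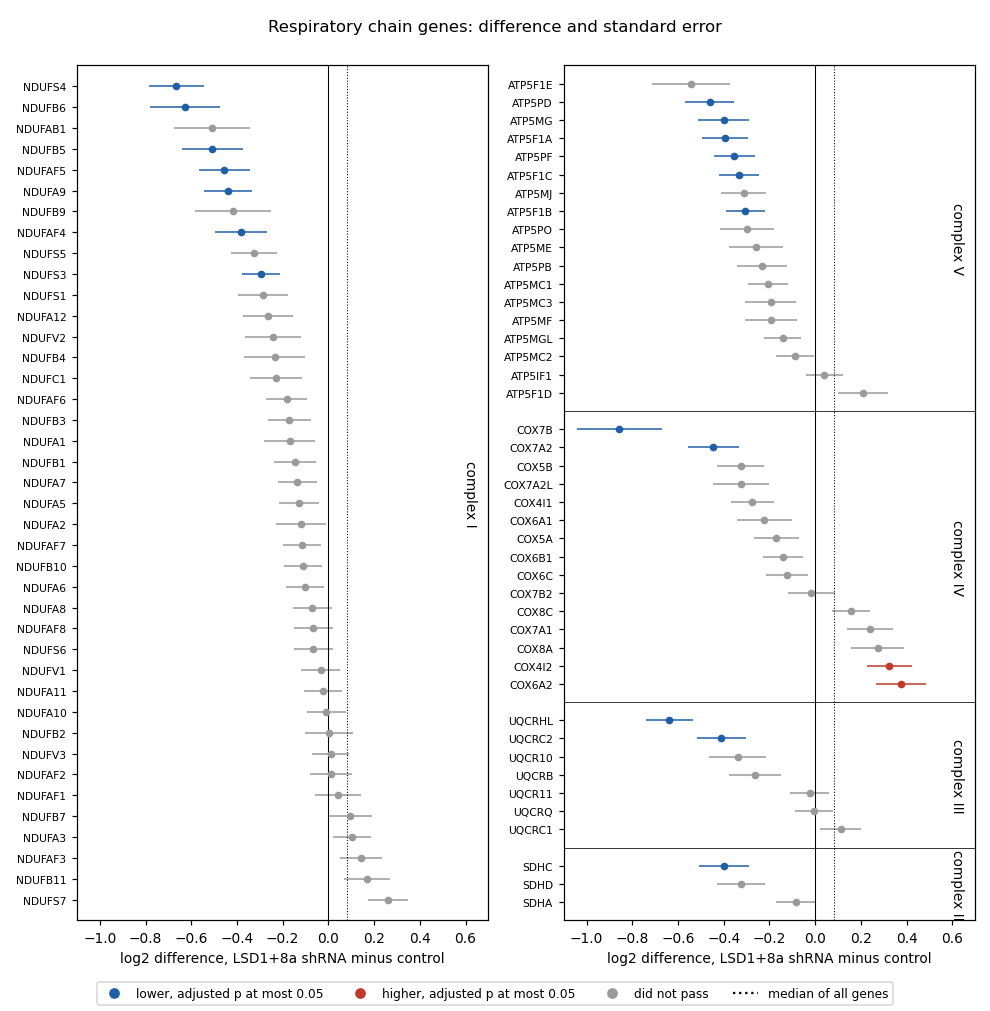
Log2 difference (LSD1+8a shRNA minus control shRNA, horizontal axis) of each of the 83 respiratory chain genes by complex, with points for limma's estimate and bars for 1 standard error, from 2 arrays per group. Blue marks the 18 genes that fell, red the 2 that rose and grey the 63 that did not pass, and the dotted line is the median of all genes, 0.08. Falls occur in every complex, and both rises are in complex IV.

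Complex I, the NADH dehydrogenase, had 7 of 40 members lower (17.5%, against 11.2% of all genes) and 0 higher (against 12.1%). Its median signal was 7.08, and of all genes with signals from 7 to 8, 18.6% were called lower and 6.66% higher. Its median difference was -0.13 (-0.065 after quantile normalization). After loess 2 of the 40 were lower (5%, against 7.85%). Of the 7, 4 were among its 27 accessory subunits, 2 among its 8 assembly factors and 1 among its 5 measured flavoprotein and iron-sulfur core subunits. NDUFS4, an accessory subunit that stabilises the NADH-binding module and is mutated in Leigh syndrome, had log2 signals of 6.18 and 6.42 in control cells and 5.51 and 5.76 in LSD1+8a shRNA cells. The difference of -0.67 ± 0.12 (SE), or 1.59-fold lower, was the largest fall in complex I (adjusted p = 0.0209). NDUFB6, in the membrane arm, read 6.03 and 6.48 in control cells against 5.52 and 5.73, a difference of -0.63 ± 0.15 (SE, adjusted p = 0.0348). Its neighbour in that arm, NDUFB5, read 6.55 and 6.90 against 6.12 and 6.32 (-0.51, adjusted p = 0.0388). For all 3 genes both LSD1+8a arrays were below both control arrays, as for 27.7% of all genes.

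NDUFA9, an accessory subunit at the junction of the arms, measured 7.29 and 7.52 in control cells and 6.92 and 7.01 in LSD1+8a shRNA cells (-0.44, adjusted p = 0.0334). NDUFS3 is the core subunit of complex I that passed the test. It gave 7.71 on both control arrays against 7.38 and 7.45 (-0.30, adjusted p = 0.0449). Among the assembly factors, which build the complex but are not part of it, NDUFAF5, an arginine hydroxylase that acts on NDUFS7, gave 5.02 and 5.28 in control cells against 4.62 and 4.77 (-0.46, adjusted p = 0.0356). The floor on the LSD1+8a arrays was 4.71 and 4.72, so NDUFAF5 lay below it on array 1 and just above it on array 2. NDUFAF4, which acts with NDUFAF3 on an early intermediate, gave 5.62 and 5.87 against 5.28 and 5.45 (-0.38, adjusted p = 0.0483). In each of these both LSD1+8a arrays were below both control arrays, as for 27.7% of all genes.

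The other 33 complex I genes did not pass. NDUFAB1, the mitochondrial acyl carrier protein, differed by -0.51 ± 0.17 (SE) with an adjusted p of 0.0591. At the other end was NDUFS7, the core subunit that carries the last iron-sulfur cluster before ubiquinone, with 6.77 and 6.63 in control cells and 6.95 and 6.97 in LSD1+8a shRNA cells (0.26, adjusted p = 0.0656). NDUFB2 was the only member with more than 1 single-symbol cluster. The one used here differed by 0.00 (adjusted p = 0.988) and the other by -0.22 (adjusted p = 0.101), and neither passed.

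Complex II, succinate dehydrogenase, had 1 of 3 measured subunits lower (33.3%, against 11.2% of all genes), and 0 after loess. All 3 differences were below 0, with a median of -0.32 (-0.21 without LSD1+8a array 1). SDHC, a membrane anchor with part of the ubiquinone site, gave 8.47 and 8.59 in control cells and 8.00 and 8.26 in LSD1+8a shRNA cells (-0.40, adjusted p = 0.0435). SDHD, the other anchor, had a difference of -0.32 (adjusted p = 0.0579). The flavoprotein SDHA, which oxidises succinate, had a difference of -0.09 (adjusted p = 0.450).

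Complex III had 2 of 7 members lower (28.6%, against 11.2% of all genes, and 1 after loess) and 0 higher, with a median of -0.26. That median was -0.15 without control array 2, -0.17 without LSD1+8a array 1 and -0.14 over the 6 subunits without the copy UQCRHL. UQCRC2, a core protein of the matrix side, read 8.70 and 8.87 in control cells against 8.27 and 8.48 (-0.41, adjusted p = 0.0393). UQCRHL, a near-identical copy of the hinge protein gene UQCRH, read 7.07 and 7.28 against 6.47 and 6.60 (-0.64 ± 0.10 SE, adjusted p = 0.0170), and signal from the 2 genes cannot be told apart here. UQCRC1, the partner of UQCRC2, had the highest difference of the complex, 0.11 (adjusted p = 0.349). Its LSD1+8a arrays both lay above both controls, as for 46.7% of all genes.

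Complex V, the ATP synthase, had 6 of 18 members lower (33.3%, against 11.2% of all genes) and 0 higher (against 12.1%), with a median of -0.28. For 15 members both LSD1+8a arrays lay below both controls (83.3%, against 27.7%). After loess 1 of the 18 was lower (5.56%, against 7.85%). In the F1 part, which includes the head where ATP is made, 3 of 5 subunits fell. The alpha subunit ATP5F1A gave 8.89 and 8.97 in control cells and 8.64 and 8.43 in LSD1+8a shRNA cells (-0.40, adjusted p = 0.0373). The catalytic beta subunit ATP5F1B gave 10.00 and 10.11 against 9.75 and 9.75 (-0.31, adjusted p = 0.0448), and the rotating gamma subunit ATP5F1C 9.34 and 9.47 against 9.05 and 9.09 (-0.33, adjusted p = 0.0407). The 3 falls were of similar size, and the replicate arrays of each group lay closer to each other than to the other group.

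The epsilon and delta subunits of the same F1 part did not pass and differed in sign. ATP5F1E was at -0.54 ± 0.17 (SE, adjusted p = 0.0549) and ATP5F1D at 0.21 ± 0.11 (SE, adjusted p = 0.174). Of the 4 subunits of the peripheral stalk, which holds the head still, 2 fell. ATP5PD read 9.73 and 9.87 in control cells against 9.23 and 9.45 (-0.46, adjusted p = 0.0313). ATP5PF, whose promoter carries all 3 motifs, read 7.86 and 8.00 against 7.55 and 7.60 (-0.35, adjusted p = 0.0376). In the membrane part, ATP5MG, a subunit at the dimer interface, read 6.04 and 6.19 against 5.59 and 5.84 (-0.40, adjusted p = 0.0435). Its near-identical copy ATP5MGL differed by -0.14 (adjusted p = 0.210). None of the 3 genes of the c ring, the proton-driven rotor, passed (differences from -0.21 to -0.09), and the inhibitor ATP5IF1 differed by 0.04 (adjusted p = 0.722).

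**Figure D2:**
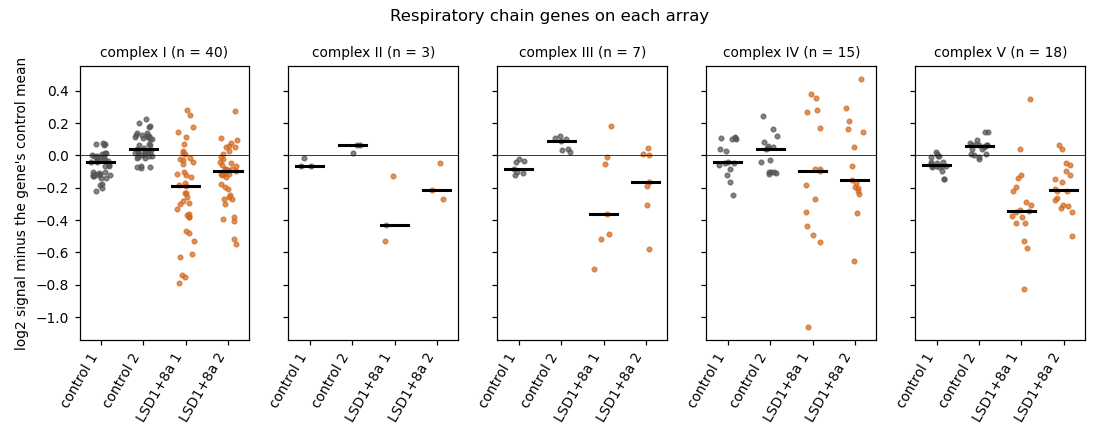
Log2 signal of each respiratory chain gene minus its mean over the control arrays (vertical axis), on each of the 4 arrays (horizontal axis), by complex; points are genes and bars are medians. Both LSD1+8a medians lie below both control medians in every complex, and complex IV shows genes above 0 as well as below.

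Complex IV, cytochrome c oxidase, was the complex in which members moved both ways. Of 15, 2 were lower and 2 higher (13.3% each, against 11.2% and 12.1% of all genes), and 0 either way after loess. Its median was -0.14 (-0.09 without control array 2 and -0.22 over genes above the median signal). Of its 9 general isoforms, which most tissues express, 2 fell, 8 had differences below 0 and the median was -0.22. COX7B, a small subunit needed for assembly of the complex, gave 7.45 and 7.94 in control cells and 6.63 and 7.05 in LSD1+8a shRNA cells. Its difference of -0.86 ± 0.19 (SE, adjusted p = 0.0285), or 1.81-fold lower, was the largest of the 83 members. COX7A2, the general isoform of subunit 7A, gave 7.77 and 8.00 against 7.35 and 7.53 (-0.45, adjusted p = 0.0366). COX8A, the general isoform of subunit 8, was the exception in sign, at 10.76 and 10.54 in control cells and 11.03 and 10.81 in LSD1+8a shRNA cells (0.27, adjusted p = 0.107). It also had the highest mean signal among the members, 10.8, and COX7B2 the lowest, 3.05, although signals of different probes do not compare transcript amounts.

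Both rises were in tissue isoforms, which replace a general subunit in particular tissues. COX6A2, the heart and skeletal muscle isoform of subunit 6A, gave 6.68 and 6.47 in control cells and 6.86 and 7.05 in LSD1+8a shRNA cells (0.38 ± 0.11 SE, adjusted p = 0.0477). COX4I2, the lung isoform of subunit 4, gave 6.42 and 6.22 against 6.67 and 6.61 (0.32 ± 0.10 SE, adjusted p = 0.0499). In both genes both LSD1+8a arrays lay above both control arrays, as for 46.7% of all genes. The general isoforms COX6A1 and COX4I1 differed by -0.22 (adjusted p = 0.188) and -0.27 (adjusted p = 0.0643). COX7A1, the muscle isoform of subunit 7A, differed by 0.24 (adjusted p = 0.103). COX7B2 and COX8C lay below the floor of the background features with 13 to 18 GC bases on all 4 arrays, though above those with up to 12, so whether they were above background could not be told.

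Under the 3 scalings the differences of both genes stayed above 0 without passing the test: COX6A2 was at 0.36 after loess (adjusted p = 0.0750), 0.40 after quantile normalization and 0.33 after centring, and COX4I2 at 0.27 (adjusted p = 0.0939), 0.31 and 0.27. Neither passed without LSD1+8a array 1 or without LSD1+8a array 2. Background features with 13 to 18 GC bases were higher with LSD1+8a shRNA by 0.09 to 0.27, those with 19 to 25 differed by -0.06 to 0.12, and those with 3 to 10 by -0.08 to -0.01. Of the glial markers 2 of 3 measured, and of the blood and endothelial markers 3 of 6, were called higher (against 12.1% of all genes), and 0 of either list after loess. The summed linear signal of the glial markers was 191 to 207 in control and 234 to 243 in LSD1+8a shRNA cells, and that of the blood and endothelial markers 202 to 220 and 256 to 257. The part of these features and markers in the result was not tested.

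**Figure D3:**
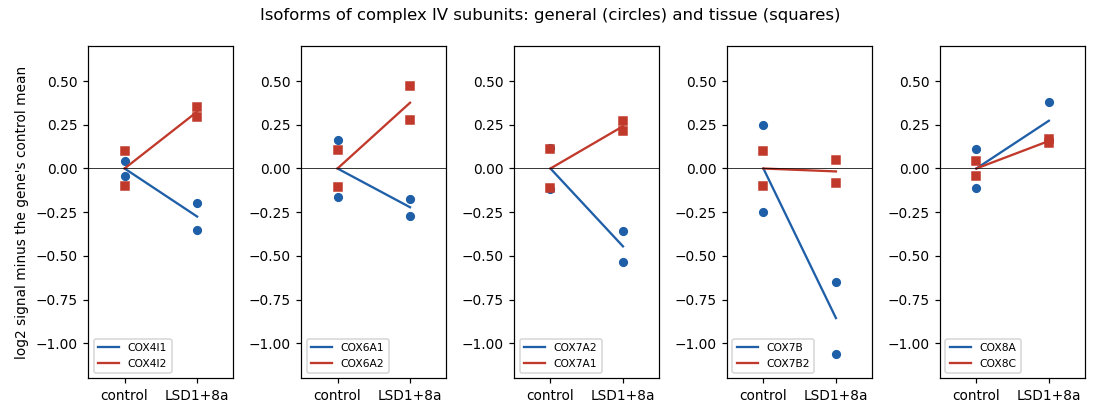
Log2 signal minus the gene's control mean (vertical axis) in control and LSD1+8a shRNA cells (horizontal axis) for 5 complex IV subunits, with general isoforms as blue circles and tissue isoforms as red squares; symbols are arrays (2 per group) and lines join group means. COX4I2, COX6A2 and COX7A1 lie above 0 with LSD1+8a shRNA while COX4I1, COX6A1 and COX7A2 lie below, and COX7B2 and COX8C are below the median of the background features with 13 to 18 GC bases.

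Signal level went with the difference over all genes, so the members were read against genes of like signal. NDUFAF5, which was called lower, COX7B2 and COX8C had mean signals below 5 and are outside the ranges given. Genes with a mean signal from 5 to 6 had a median difference of 0.21 over all 3893, and -0.25 over the 10 members in that range. From 6 to 7 the medians were 0.07 over all genes and -0.16 over 22 members, and from 7 to 8 they were -0.05 and -0.13 (32 members). From 8 to 9 they were -0.09 and -0.25 (10 members) and from 9 to 10 they were -0.10 and -0.33 (4 members). In each of these ranges the members' median was below that of all genes, and from 10 to 11 the 2 members, COX8A and COX6A1, had a median of 0.03 against -0.09. The calls did not follow the medians in every range. From 6 to 7, 2 of 22 members were called lower, against 15.0% of all genes there. From 7 to 8 they were 5 of 32, against 18.6%. From 5 to 6 they were 4 of 10 (against 7.73%), from 8 to 9 3 of 10 (against 18.2%) and from 9 to 10 3 of 4 (against 20.1%). COX6A2 and COX4I2 lie in the range from 6 to 7, where 16.6% of all genes were called higher. The median signals of complexes I to V were 7.08, 7.56, 7.34, 6.92 and 7.69. The shares over all genes given beside the complexes therefore include genes of other signal levels.

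**Figure D4:**
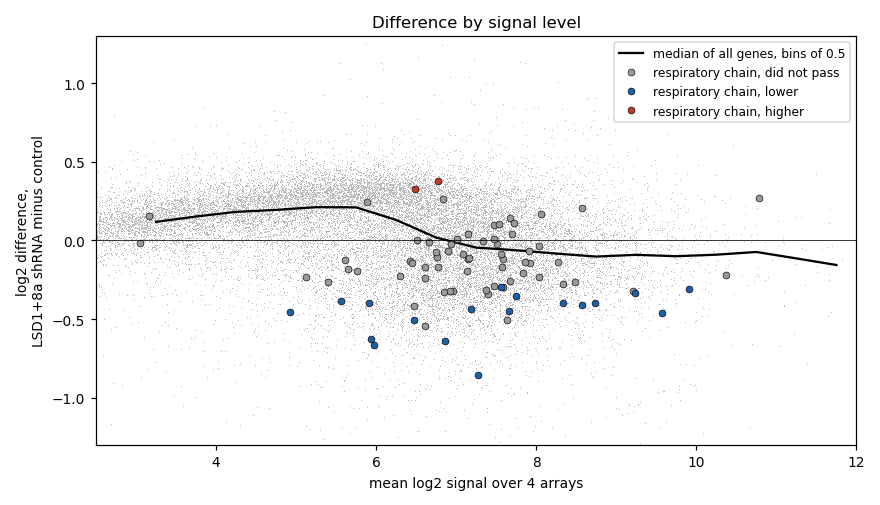
Log2 difference (LSD1+8a shRNA minus control shRNA, vertical axis) against mean log2 signal over 4 arrays (horizontal axis); small dots are all genes, large points the respiratory chain genes, and the line is the median of all genes in bins of 0.5. The line runs above 0 at low signals and below 0 at high signals, and most respiratory chain genes lie below it.

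Many of these genes have processed pseudogenes, whose transcripts can share probes with the parent gene. The RefSeq gene table lists a pseudogene named after 47 of the 83 members. Of these 47, 13 were lower (27.7%, against 11.2% of all genes, and 1 after loess) and 0 higher, with a median difference of -0.26. Of the other 36, 5 were lower (13.9%, and 3 after loess) and 2 higher (5.56%, against 12.1%), with a median of -0.09. The 5 without a named pseudogene were NDUFS4, NDUFB6, NDUFAF5, NDUFS3 and UQCRHL. UQCRHL and ATP5MGL, themselves near-identical copies of other genes, are among the 36 because no listed pseudogene bears their name. Without members that have a named pseudogene, the median of complex III was -0.014 and that of complex IV, then led by 4 tissue isoforms among 6 genes, turned to 0.26, and that of complex V was -0.17. The share of probes that match such copies was not tested.

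Other genes of the pathway, taken from lists of known function, also had more members lower than higher. Median signals were 6.94 for further subunits and assembly factors, 7.08 for regulators, 7.82 for cycle genes and 7.98 for import and membrane genes. Of all genes with signals from 6 to 7, 15.0% were called lower and 16.6% higher. From 7 to 8 these shares were 18.6% and 6.66%, so the shares over all genes given below are not those of genes of like signal. Of 49 further subunits and assembly factors measured, 9 were lower (18.4%, against 11.2% of all genes) and 0 higher (against 12.1%), with a median of -0.16. Among them were SDHAF3, an assembly factor of complex II (-0.61, adjusted p = 0.0266), and LRPPRC, which stabilises mitochondrial mRNAs (-0.44, adjusted p = 0.0273). SDHAF3 was dim, at 4.66 and 4.96 in control cells and 4.08 and 4.31 with LSD1+8a shRNA, where both arrays lay below the floor. CHCHD2, a small intermembrane-space protein, differed by -0.50 (adjusted p = 0.0210), and FASTKD2, a mitochondrial RNA-binding protein, by -0.45 (adjusted p = 0.0491). Cytochrome c (CYCS), which carries electrons between complexes III and IV, differed by -0.39 (adjusted p = 0.0539).

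Of 23 measured regulators of mitochondrial biogenesis, 7 were lower (30.4%, against 11.2% of all genes) and 1 was higher (4.35%, against 12.1%), with a median of -0.23. TFAM, which packages mitochondrial DNA and activates its transcription, gave 7.06 and 7.17 in control cells and 6.51 and 6.49 in LSD1+8a shRNA cells. Its difference of -0.62 ± 0.09 (SE, adjusted p = 0.0126) was 1.53-fold and was still called after loess (adjusted p = 0.0240). TFB2M, its partner at mitochondrial promoters, read 7.92 and 8.17 against 7.37 and 7.50 (-0.60, adjusted p = 0.0208), and the deacetylase SIRT1 read 7.74 and 7.81 against 7.23 and 7.12 (-0.60, adjusted p = 0.0136). TEFM, the mitochondrial elongation factor, differed by -0.47 (adjusted p = 0.0468).

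Because their motif types are shown above, GABPA, GABPB1 and YY1 are also named, chosen after their values were seen. GABPA read 6.87 and 6.91 in control cells against 6.43 and 6.58 (-0.39, adjusted p = 0.0334), GABPB1 differed by -0.28 (adjusted p = 0.0486), and YY1 differed by -0.23 without passing (adjusted p = 0.0809). CREB1, likewise named after its value was seen, completes the 7 that were lower (-0.45, adjusted p = 0.0218). The coactivator PPARGC1B, named in the same way, was the 1 that was higher (0.34, adjusted p = 0.0436, and 0.182 after loess), and PPARGC1A, the best known coactivator of this programme, lay at 3.43 to 3.70, below the floor of the background features with 13 to 18 GC bases on all arrays. NRF1 was not analysed here.

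In the tricarboxylic acid cycle, which supplies NADH and succinate, 4 of 17 measured genes were lower (23.5%, against 11.2% of all genes) and 0 higher, with a median of -0.21. These were SUCLG2 (-0.40, adjusted p = 0.0362), IDH2 (-0.36, adjusted p = 0.0308), DLST (-0.34, adjusted p = 0.0425) and PDHX (-0.30, adjusted p = 0.0469). Among 30 genes of mitochondrial import and membranes, 9 were lower (30.0%, against 11.2% of all genes) and 1 higher (3.33%, against 12.1%), with a median of -0.23. TOMM20, a receptor of the outer-membrane import pore, read 9.39 and 9.45 in control cells against 8.85 and 8.72 (-0.63, adjusted p = 0.0126). VDAC3, an outer-membrane channel, differed by -0.51 (adjusted p = 0.0348), and the import subunits TIMM17A and TIMM9 by -0.46 (adjusted p = 0.0342) and -0.37 (adjusted p = 0.0395). CHCHD10, named after its value was seen, was the gene that was higher (0.28, adjusted p = 0.0484).

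Loess and single arrays changed these counts as they did those of the chain itself. After loess 6 of 23 regulators were lower (26.1%), against a background of 7.85%. The shares of the other lists were nearer that background, with 4 further subunits and assembly factors (8.16%), 2 cycle genes (11.8%) and 3 import and membrane genes (10.0%) lower. By limma, without either control array 0 of the 4 lists' genes were called, as was 0 of all genes. Without LSD1+8a array 1 the counts lower were 1 of 49 further subunits, 3 of 23 regulators, 0 of 17 cycle genes and 1 of 30 import genes, against 3.94% of all genes. Without LSD1+8a array 2 they were 7, 7, 2 and 5, against 8.79%.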

How the data were processed

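RNA from 4 SH-SY5Y samples was measured on the second Affymetrix human transcriptome array from 250 ng of total RNA. Per the submitters' processing notes, the authors produced the deposited log2 signals by RMA. Neither its settings nor a genome build is stated in the labels used here. Of 70523 features, 67528 are transcript clusters, of which 23781 have 1 symbol in the platform table and give 22465 genes (highest-mean cluster per gene). Differences were tested by limma (version 3.58.1, R 4.3.3; lmFit and eBayes with no replicate term, 2 residual and 5.41 prior degrees of freedom per gene), on all genes without a filter, with Benjamini-Hochberg adjustment and a threshold of 0.05; the script was tested on simulated data. With 2 arrays per group an exact permutation test could not go below 0.333. Replicates are not labelled as separate cultures, and p-values therefore reflect the scatter of these 4 arrays alone, possibly technical. RMA gives no detection call, and the number of arrays limits the precision; the median of the background features with 13 to 18 GC bases serves as a floor.

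The members, lists and tests were chosen with earlier results of these data known. Named were every member past the threshold, the extremes of each complex, the complex IV isoforms, members with copies or several clusters, and up to 4 genes called lower in each related list with PPARGC1A, NRF1, TFAM and CYCS; genes outside this rule are marked in the text. Symbols of the fixed lists were matched directly or by an older symbol. Promoters come from RefSeq's GRCh38.p14 table. Alternatives were 3 scalings, trended and robust moderation, a filter on signal, the mean over clusters, protein-coding genes, the replicate number as a block, leaving out each array, members without named pseudogenes, subunits only and other thresholds. Protein sequences were not used here. Figures were drawn with matplotlib 3.10.9.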

Additional observations from a re-analysis of the deposited data

How the results depend on the processing

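None of the 20 called members changed sign under any setting tried. Robust moderation, the mean over clusters and the restriction to protein-coding genes kept all 20 called members, trended moderation kept 19, median centring 18, quantile normalization 9 and cyclic loess 4; the filter on signal kept 15 and removed the other 5. The count of members lower was 9 after quantile normalization, 4 after loess, 5 without members that have a named pseudogene, 30 at a threshold of 0.1 and 0 at 0.01, and it ranged from 0 to 21 over fits without 1 array. The count higher was 0 after quantile normalization, median centring and loess, 0 at a threshold of 0.01, and 0 in every fit without 1 array. The members' median ranged from -0.24 to -0.12 without 1 array and was -0.085 without members that have a named pseudogene, where the medians of complexes III, IV and V were -0.014, 0.26 and -0.17. The complex II median was -0.28 after quantile normalization, -0.37 after centring and from -0.43 to -0.21 without 1 array. The complex I median was -0.065 after quantile normalization, and without 1 array the medians of complexes III and IV ranged from -0.38 to -0.15 and from -0.17 to -0.086. Fewer members or arrays enter some of these fits; otherwise the cause was not tested. Median centring moved the all-gene median from 0.08 to 0.03.

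With the replicate number as a block, 31 members were lower and 3 higher, including all 20 called without it, and 7954 genes were called in all. The labels do not say that the numbers pair the samples, and replicate deviations of the 2 groups correlated at 0.02 over all genes and at 0.46 over the members, where replicate 1 lay below replicate 2 in both groups for 54 of 83. COX7B2 and COX8C are limited by their low signal, as is NDUFAF5 with LSD1+8a shRNA. The 8 members with an adjusted p from 0.05 to 0.07 lie too close to the threshold to be separated from those just inside it (0.0499 inside, 0.0538 outside).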
